A study of Mus musculus with 26 samples.

Results

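Sites of SMC3, one of the proteins that form the cohesin ring, were compared between C2C12 myotubes and the C2C12 myoblasts from which they formed. The comparison used 4 of the 26 samples of the series: 2 SMC3 ChIP-seq libraries of myotubes, held in differentiation medium with 2% horse serum and insulin, transferrin and selenium, and 2 of myoblasts, grown in 20% fetal bovine serum. All 4 came from C2C12, a mouse muscle precursor line, and from formaldehyde-fixed, sonicated chromatin precipitated with 1 lot of an SMC3 antibody. No transfection is given for these 4 libraries, and the labels do not state the time in differentiation medium or that replicates were separate cultures, so the spread between replicates may be technical. The wider study mapped the DRR enhancer RNA by ChIRP-seq, SMC3 after knockdown of that RNA with siDRR, and open chromatin by ATAC-seq.

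Cohesin is a ring of SMC1, SMC3, RAD21 and a STAG subunit that holds DNA within its lumen. It joins sister chromatids in dividing cells and extrudes chromatin loops, which are often halted where the factor CTCF is bound. It is also found at active enhancers and promoters, together with the loader NIPBL. When myoblasts become myotubes they leave the cell cycle and fuse, so the comparison sets cohesin in a proliferating population beside cohesin in cells that have differentiated. No expression values were used here, and the state of the cells was not checked against muscle markers.

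Each library was represented by 1 list of peaks on mouse build mm9, each peak with a score given by the authors' peak caller. Peaks of the 4 lists on chromosomes 1 to 19 and X were merged where they shared at least 1 bp, which gave 42567 regions. A region counted as called by a list when at least 1 of that list's peaks reached into it. Regions called in all 4 lists are termed kept, those in both myotube lists and no myoblast list gained, and those in both myoblast lists and no myotube list lost. The terms stand for calls: depth is unknown, and a shorter list and fewer bound sites cannot be told apart.

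The myotube lists held 15056 and 26765 peaks, against 30955 and 33154 in the myoblast lists. Both myotube lists were shorter than both myoblast lists, and the first myotube list was the shortest by far. The difference of the means was -11144 peaks, with an exact permutation p of 0.33 (two-sided), the lowest that 2 against 2 libraries can reach, and of 0.5 after Benjamini-Hochberg adjustment over 6 measures of the lists. Covered sequence was 19.9 and 35.5 Mb in myotubes, against 38.7 and 50.7 Mb in myoblasts. Of the myotube peaks, 46.1% and 34.7% scored under 100, against 34.6% and 34.2% of the myoblast peaks. The first myotube list thus stood apart from the other 3 in both its length and its share of low scores. Scores started at 50 in every list and reached 1001.05 and 2391 in the myotube lists, against 1962 and 3100 in the myoblast lists.

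Kept regions numbered 13017, which was 30.6% of all merged regions. Gained regions numbered 336, or 0.789% of all regions and 2.43% of the 13837 called in both myotube lists. Lost regions numbered 5458, or 12.8% of all regions and 21.7% of the 25207 called in both myoblast lists. The other 23756 regions had calls that split at least 1 pair of replicates. The most frequent of those patterns was a call in every list but the first of the myotubes, with 6303 regions. Without myotube replicate 1 there were 3629 gained and 5889 lost regions, and the share of lost among lost and gained regions was 61.9%, against 94.2% with all lists. Without myotube replicate 2 there were 847 gained and 11776 lost regions. Leaving out myoblast replicate 1 gave 544 gained and 10696 lost regions, and leaving out myoblast replicate 2 gave 612 and 9964.

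**Figure D1:**
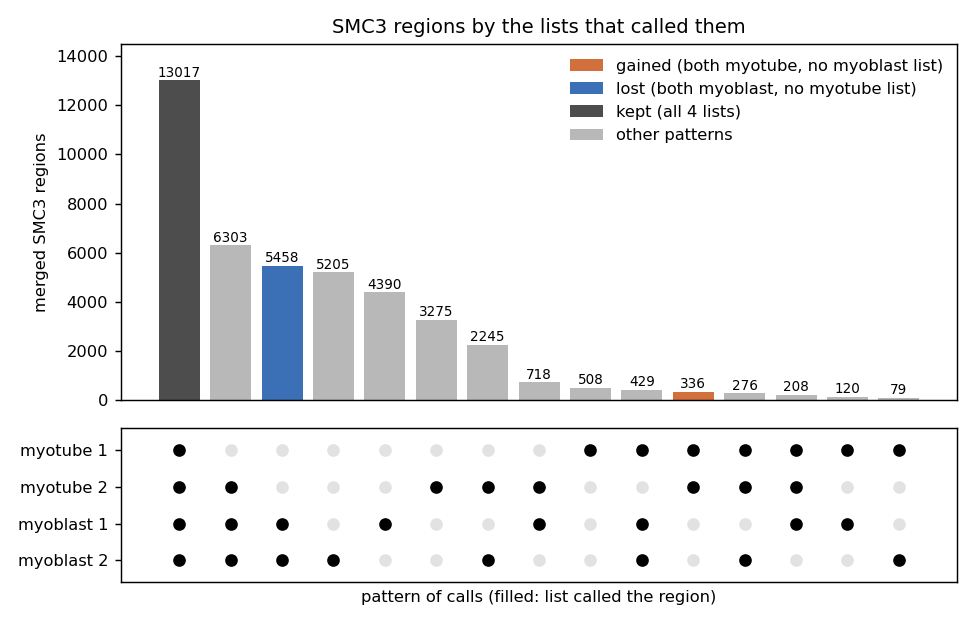
Number of merged SMC3 regions (vertical axis) for each of the 15 patterns of calls, with filled dots below each bar marking the lists that called them. The 13017 regions of all 4 lists form the tallest bar, the 6303 missing only from myotube 1 come next, and the 336 gained regions are fewer than the 508 called in myotube 1 alone.

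Lists of equal length gave another split. When each list was reduced to its 15056 best-scoring peaks, 788 regions were gained and 1023 lost, which made lost regions 56.5% of both. Most of these were still called further down the full lists. Of the 788, 97 were in neither full myoblast list. Of the 1023, 747 were called in the full second myotube list and 276 in neither full myotube list, the first myotube list being already at that length. The number of sites with no call at any rank in the other state therefore differs from the number that fell below a common rank.

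Replicates resembled each other more closely in myoblasts. The 2 myotube lists shared 13837 regions, 92.4% of those in the first and 52.5% of those in the second. The 2 myoblast lists shared 25207 regions, 82.3% and 76.4% of each. The second myotube list shared 21841 regions with the second myoblast list, 82.8% and 66.2% of each, and 20246 with the first, 76.8% and 66.1%. Over the 13017 kept regions, the Spearman correlation of scores was 0.63 between the myotube lists and 0.77 between the myoblast lists. It was 0.75 between the second myotube and second myoblast lists, and 0.49 between the first lists of the 2 states. The second myotube list was thus closer in score order to both myoblast lists than to its own replicate; its correlation with the first myoblast list was 0.66. These are correlations across regions, which are not independent replicates, and the points share library depth.

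Where a region was kept, the peaks lay in the same place. In 12609 kept regions (96.9%) each list had exactly 1 peak, and the 4 peak midpoints spanned a median of 102 bp, with 90% of the spans at or under 286 bp. The stretch covered by all 4 peaks had a median of 1016 bp. In 4 of these regions no base was shared by all 4 peaks. Between the 2 myotube lists the midpoints of single regions were offset by a median of 48.5 bp, and between the 2 myoblast lists by 46.5 bp; pairs across the states lay between 46 and 55 bp. The offsets across states were thus within a few bp of those between replicates of 1 state.

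Gained and lost regions were for the most part not displaced kept sites either. The nearest peak of the other state lay a median of 13.3 kb from a gained region and 18.99 kb from a lost region. It lay within 1 kb of 19 gained regions (5.65%) and of 258 lost regions (4.73%). The closest was at 131 bp for gained and at 2 bp for lost regions.

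Gained and lost regions came from the weak end of the lists that held them. Peaks were ordered by score within each list and given a percentile, 100 being the highest-scoring; the percentile of a region is that of its highest-ranked peak. Gained regions had median percentiles of 26.0 and 30.3 in the 2 myotube lists, and lost regions 30.5 and 29.5 in the 2 myoblast lists. Kept regions had 55.8 and 73.8 in the myotube lists and 76.8 and 77.8 in the myoblast lists. Of the gained regions 15 and 11 reached the top 25% of the myotube lists, and of the lost regions 51 and 67 reached that of the myoblast lists. Scores under 100 were held by 76.2% and 57.4% of gained regions in the myotube lists and by 57.6% and 58.5% of lost regions in the myoblast lists. Among kept regions the share was 39.8% in the first myotube list and between 5.21% and 8.73% in the other 3.

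The dependence on rank was close to continuous. Among regions called in both myoblast lists, 60.2% and 69.0% of the lowest decile of the first and second list were lost, against 0.03% and 0.09% of the highest. The kept share ran the other way, with 96.0% and 94.997% in the highest decile and 7.07% and 7.42% in the lowest. Among regions called in both myotube lists, the gained share was 7.16% and 19.03% in the lowest decile and 0.33% and 0% in the highest. Even in the lowest decile, 82.2% and 63.8% of these regions were kept. The weakest myotube sites called in both libraries were therefore mostly called in both myoblast libraries, whereas the weakest myoblast sites were mostly not called in myotubes, whose lists were shorter.

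**Figure D2:**
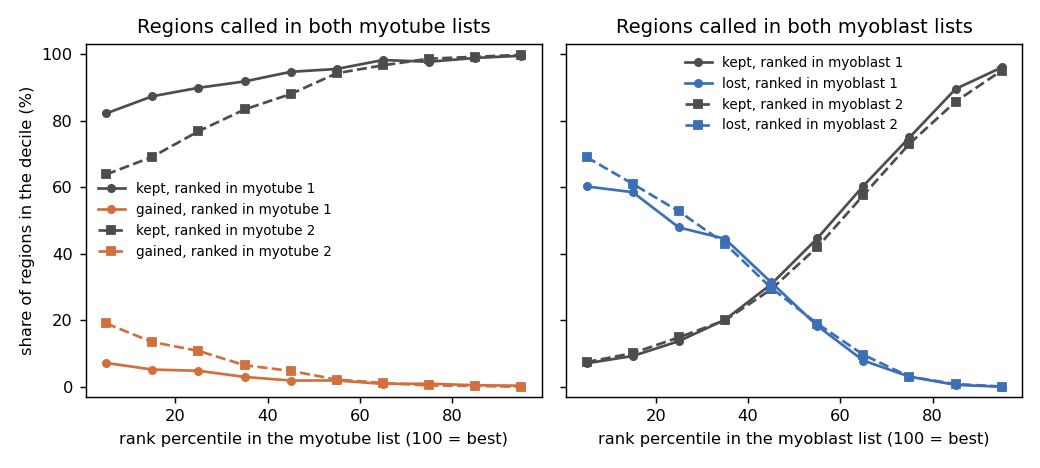
Share of regions (%) that were kept or gained among those called in both myotube lists (left) and kept or lost among those called in both myoblast lists (right), by decile of rank percentile in each list. The gained share does not pass 19.03% in any decile, while the lost share reaches 60.2% and 69.0% in the lowest decile and is under 0.1% in the highest.

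The strongest gained region was found on chromosome 6 (31024807 to 31027869), with percentiles 89.2 and 89.1 in myotubes. It was also called in both SMC3 lists of myotubes transfected with siDRR, at percentiles of 24.7 and 63.1, in both ATAC lists of control myotubes and by both ChIRP libraries of probe pool 2. Calls in both siDRR lists were also found for 4 others of the leading 10 gained regions. They included 1 on chromosome 16 (24231040 to 24233101), with open chromatin in both ATAC lists, and 1 on chromosome 1 (57480087 to 57481329) that lay 5.72 kb from a kept region. The gained region on chromosome 1 at 136185772 to 136191545 was 5774 bp wide and was called in neither siDRR list, though 3 of 4 ChIRP libraries had a summit within 250 bp of it or inside it. Gained regions on chromosome 3 at 21462128 to 21465527 and at 107557067 to 107560209 were 3400 and 3143 bp wide. Of the leading 10, 4 were at least 3000 bp wide, 9 were called in the second siDRR list and 5 in the first. Over all 336 gained regions these shares were 8.63%, 49.1% and 8.93%, and the siDRR shares rose with rank.

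The strongest lost region lay on chromosome 8 (130496380 to 130498417) and was called in neither siDRR list, though both ATAC lists of myotubes had a peak there, at ranks of 44.6 and 83.6. No siDRR or control ATAC list had a peak at 3 of the leading 10, namely those at 131583713 to 131584699 on chromosome 3, at 68752354 to 68753486 on chromosome 14 and at 60042941 to 60044065 on chromosome 9. The 10255 bp lost region on chromosome 8 (87496946 to 87507200) ranked at 67.9 and 99.4 in the myoblast lists, and at 95.1 in the second siDRR list. The first siDRR list lacked it, as did both SMC3 lists of myotubes without siDRR. Of the leading 10 lost regions, 5 were called in the second siDRR list, none in the first, and none held a ChIRP summit. These counts are near the class shares: the second and first siDRR lists called 47.6% and 4.76% of the 21 lost regions with mean percentiles above 75. Over all lost regions they called 16.5% and 1.34%, and each ChIRP library touched between 0.202% and 4.67%. Their distance to the nearest kept region ranged from 5.07 to 407 kb.

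The 5 kept regions with the highest ranks were at the top of all 4 lists. That on chromosome 16 (30061990 to 30071751) was 9762 bp wide and scored 779.9 and 1933 in the myotube lists and 1337 and 3100 in the myoblast lists. The others were a 3595 bp region on chromosome 13 (98706729 to 98710323), a 2974 bp region on chromosome 18 (82736210 to 82739183), a 2330 bp region on chromosome 6 (72483756 to 72486085) and a 1566 bp region on chromosome 8 (95341576 to 95343141). All 5 were called in both siDRR lists, as were 54.3% of all kept regions. The regions on chromosomes 13 and 18 had no ATAC peak in either control library.

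The order of kept regions was compared between the states as well. Because the lists differ in length, percentiles were taken again among the 13017 kept regions alone. Both myotube percentiles were above both myoblast percentiles in 2792 regions, 21.4% of the kept regions, and below them in 2719, or 20.9%. With a gap of at least 20 points between the nearest percentiles of the 2 states, the counts were 543 (4.17%) and 495 (3.8%). Percentiles within a fixed set have the same average in every list, so the 2 directions are near balance by construction. The SD of the difference in mean percentile, myotube minus myoblast, was 20.05 points over all kept regions.

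The largest rise was on chromosome 11 (85987253 to 85988364), at 91.1 and 94.0 in the myotube lists against 6.7 and 15.8 in the myoblast lists. The next lay on chromosome 1 (9611159 to 9612358), at 87.6 and 74.8 against 4.0 and 0.9, and on chromosome 5 (119262065 to 119264871), at 99.0 and 64.9 against 5.4 and 12.3. The largest drop was on chromosome 15 (79894774 to 79898273), at 1.2 and 22.0 in the myotube lists against 99.2 and 96.7 in the myoblast lists. Chromosome 1 (176929353 to 176930739) followed, at 2.7 and 25.6 against 94.3 and 84.3, and then chromosome 1 (4757892 to 4759156), at 10.2 and 18.9 against 88.8 and 88.5. The 2 states did not overlap in these regions, which follows largely from their choice by the size of the difference. All 5 leading rises were called in both siDRR lists, while 2 of the 5 leading drops were called in the first and all 5 in the second. Over all kept regions the 2 siDRR lists called 54.9% and 95.1%. For the 543 rises of at least 20 points the shares were 60.6% and 98.3%, and for the 495 drops 48.1% and 96.6%. Rises were chosen for high and drops for low myotube rank, so the counts of 5 show no more than these shares.

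Median peak width was 1171 and 1126 bp in the myotube lists, against 1079 and 1266 bp in the myoblast lists. The myotube values lay between the myoblast values, with means of 1148.5 ± 31.8 and 1172.5 ± 132 bp (SD, n = 2 each; exact permutation, two-sided, p = 1.0). The difference of -24 bp reversed to 69.5 bp without myoblast replicate 2, whose peaks were the widest. Peaks of at least 3000 bp made up 2.95% and 3.07% of the myotube lists, against 2.67% and 5.16% of the myoblast lists. Width between the states thus differed by less than it did between the 2 myoblast libraries.

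Width was related to class and rank in a way that varied by library. In the second myoblast list the median width of lost peaks was 1009, 1107, 1406.5 and 2211 bp from the lowest to the highest 25 points of rank, with 67 peaks in the last band. Kept peaks of that list had 1016, 1085, 1181 and 1387 bp. The first myoblast list showed no such rise, with 1016, 949, 972 and 987 bp for lost peaks. In the second myotube list gained peaks measured 905, 1121, 1343 and 3049 bp by rank band, against 894.5, 964, 1063 and 1212 bp for kept peaks; the last gained band held only 11 peaks, and the other 3 bands keep their order without it. In the first myotube list gained peaks measured 1318, 1345, 1194.5 and 1336 bp, with 15 peaks in the last band. Peaks of the other regions in the highest band had medians of 1919 bp in the second myotube list and 1797 bp in the second myoblast list. High rank with large width was therefore not particular to gained and lost peaks. The medians of high-ranking gained and lost peaks exceeded those of kept peaks by far in the second library of each state. In the first myotube list a minority were broad: 20.0% of the 15 gained peaks of the last band were at least 3000 bp wide, against 2.82% of kept peaks, and in the first myoblast list 1.96% of the 51 lost peaks, against 2.70%.

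**Figure D3:**
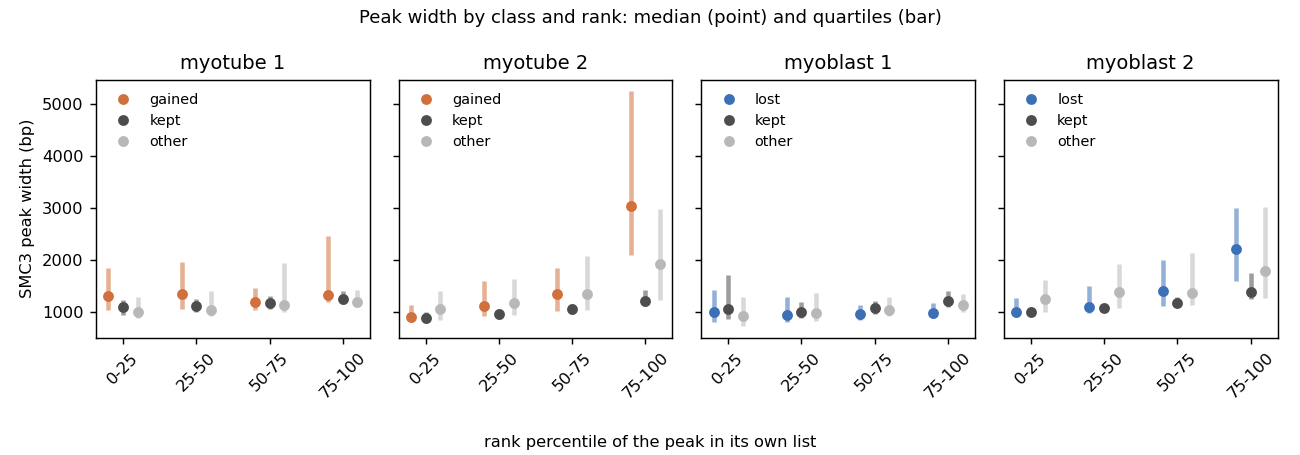
Width of SMC3 peaks (bp) by rank band of 25 points in their own list, for the 4 lists, with points at the median and bars from the first to the third quartile. Gained peaks in myotube 2 and lost peaks in myoblast 2 widen with rank to medians of 3049 and 2211 bp, whereas the medians of kept peaks stay between 894.5 and 1387 bp in all lists. Peaks of the other regions reach medians of 1919 and 1797 bp in the highest band of myotube 2 and myoblast 2.

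As merged regions, gained sites had a median width of 1361 bp, lost sites 1118 bp and kept sites 1329 bp, against 1262 bp for all regions. A kept region joins peaks of 4 lists and a gained or lost region those of 2, so these widths are not made alike. Within lists, gained peaks had a median width of 1266 bp in the first myotube list and 1066 bp in the second, against 1178 and 1115 bp for kept peaks, so the order differed by library. Lost peaks had 972 and 1096 bp in the myoblast lists, against 1152 and 1268 bp for kept peaks, and were the narrower in both. They also ranked lower. At equal rank their medians were the narrower in every band of the first myoblast list, but only in the lowest band of the second. At least 3000 bp were covered by 29 gained (8.63%), 166 lost (3.04%) and 765 kept regions (5.88%), against 5.36% of all. The widest single peaks were on chromosome 11 among gained regions (120093651 to 120100441, 6791 bp, second myotube list), on chromosome 8 among lost regions (the 10255 bp region above) and on chromosome 13 among kept regions (16098523 to 16113700, 15178 bp, second myoblast list). The 3 widest peaks of each class were all touched by both control ATAC lists. Over all merged regions these lists touched 40.6% and 60.3%. Of regions of both myoblast lists over 3000 bp wide, 57.1% and 69.7% had an ATAC peak over their central 200 bp alone. A wide peak can be touched anywhere along its length, so these contacts are not particular to the named peaks.

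Wide myoblast regions overlapped open chromatin of myotubes more often than narrow ones. Of regions called in both myoblast lists with a mean width under 1000 bp, 7.09% and 22.6% had a peak of the 2 ATAC lists over their central 200 bp, against 58.0% and 73.7% of those between 1500 and 3000 bp. At mean ranks between 50 and 75, 64.3% of 4655 regions of 1000 to 1500 bp were kept, against 43.4% of 1258 regions of 1500 to 3000 bp. Lost regions made up 6.17% and 12.1% of these sets, and the rest were called in exactly 1 myotube list. Within the wider set, the kept share was 34.4% of 751 regions called in both ATAC lists and 61.2% of 299 regions called in neither. The lost shares there were alike, at 11.98% and 12.04%, so the difference lay in regions called by 1 myotube list. Within the narrower set the kept shares were 61.9% and 63.4%, and the lost shares 5.08% and 7.40%. The part that peak width, ATAC signal and library each play in this was not tested.

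Peaks were spaced further apart in myotubes. The median distance between neighbouring peak midpoints was 61.5 and 32.7 kb in the myotube lists, against 31.0 and 27.7 kb in the myoblast lists, the order being that of list length. Distances under 10 kb made up 13.0% and 21.9% of those in myotubes, against 22.9% and 24.3% in myoblasts. Regions called in both myotube lists lay a median of 67.1 kb apart, against 38.3 kb for regions of both myoblast lists. Distances over 500 kb numbered 887 and 701 in these sets.

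Distances to the nearest region were alike in the 3 classes. The nearest merged region of any class lay at a median of 10.3 kb from gained, 11.2 kb from lost and 10.5 kb from kept regions, against 10.6 kb over all regions. It was within 10 kb for 49.1%, 46.2% and 48.6% of them. The class of that neighbour differed from the background: it was lost for 16.3% of lost regions, against 12.7% of all regions, gained for 3.87% of gained regions (13 regions), against 0.810% of all, and kept for 36.4% of kept regions, against 31.1% of all. Each class thus had more neighbours of its own kind than regions in general, by a few points. The share for lost regions was 32.5% without myotube replicate 2, 36.2% without myoblast replicate 1 and 32.1% without myoblast replicate 2, when 29.9%, 28.0% and 26.5% of all regions counted as lost. Gained regions lay within 100 kb of another gained region in 15.2% of cases, against 5.16% for all regions, and lost regions within 100 kb of another lost region in 56.0%, against 49.9%.

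Regions beside a lost region were more often lost at similar ranks too, except at the highest. Among regions of both myoblast lists, 28.5% of the 5373 whose nearest neighbour in that set was lost were lost themselves, against 18.6% of the 13150 whose nearest neighbour was kept. Within the lowest 25 points of rank the shares were 73.1% and 63.8%, in the second 48.9% and 35.0%, in the third 14.6% and 6.3% and in the highest 0.1% and 0.2%. Over all ranks, the gap was absent for neighbours under 2.5 kb away, at 21.4% and 20.9%, and was present in each wider band, for example 27.3% and 15.5% at 2.5 to 5 kb. The distance bands were not split by rank. Median ranks beside a lost and a kept neighbour were 61.6 and 59.2 under 2.5 kb, and 61.4 and 64.6 at 2.5 to 5 kb. Regions with no neighbour within 100 kb were lost in 27.1% of 1773 cases, and had a lower median rank, 51.6 against 59.0 for all.

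Runs of adjacent regions of 1 class were short for gained and lost sites, which were also the rarer classes. They made up 0.789% and 12.8% of all regions, against 30.6% for kept sites. A rarer class forms shorter runs even in random order, so the run lengths do not set the classes apart. Of the 336 gained regions, 311 stood alone and the longest run held 3, on chromosome 8 (90270980 to 90354763), none of them called in either siDRR list. Lost regions formed 4554 runs, of which 3815 held 1 region and 2 held 5, on chromosome 1 (121004094 to 121154024, 149.9 kb) and chromosome 12 (110987452 to 111252575, 265.1 kb). No region of these lost runs was called in a siDRR list, while 3 and 2 of 5 were touched in the first ATAC list and 5 and 3 in the second. Neither siDRR list called 47.9% of all gained and 82.5% of all lost regions, and the ATAC lists touched 29.7% and 46.9% of all lost regions. Kept regions formed 8416 runs, of which 1031 held 3 or more. The longest held 9 regions each and lay on chromosome 7 (17313556 to 17499967) and on chromosome 8 (96710075 to 97017939 and 25496452 to 25935517).

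Loss was spread over all chromosomes. On the autosomes, between 18.2% (chromosome 4, exact 95% binomial interval 16.3% to 20.3%) and 26.5% (chromosome 13, 24.0% to 29.1%) of the regions of both myoblast lists were lost. Chromosome X, with 125 of 538 regions, was within that range at 23.2% (19.7% to 27.04%). In lists of equal length it was 4.88% on X, against 8.27% on all chromosomes, with an interval of 2.36% to 8.79% on X. The intervals on X hold the value of all chromosomes in both cases, so X was not shown to differ from the genome. Without myotube replicate 2 it was 50.6% on X, against 46.7% on all, without myoblast replicate 2 37.1% against 32.3%, and without myoblast replicate 1 32.3% against 32.4%. Chromosome 13 also had the lowest kept share of the autosomes, at 46.3%, the lowest median myoblast rank, at 56.0, and the highest gained share, with 21 regions or 3.64% of those called in both myotube lists. Chromosome 11 was the densest in kept regions, at 8.43 per Mb between its first and last region, and X the sparsest, at 1.60 per Mb.

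**Figure D4:**
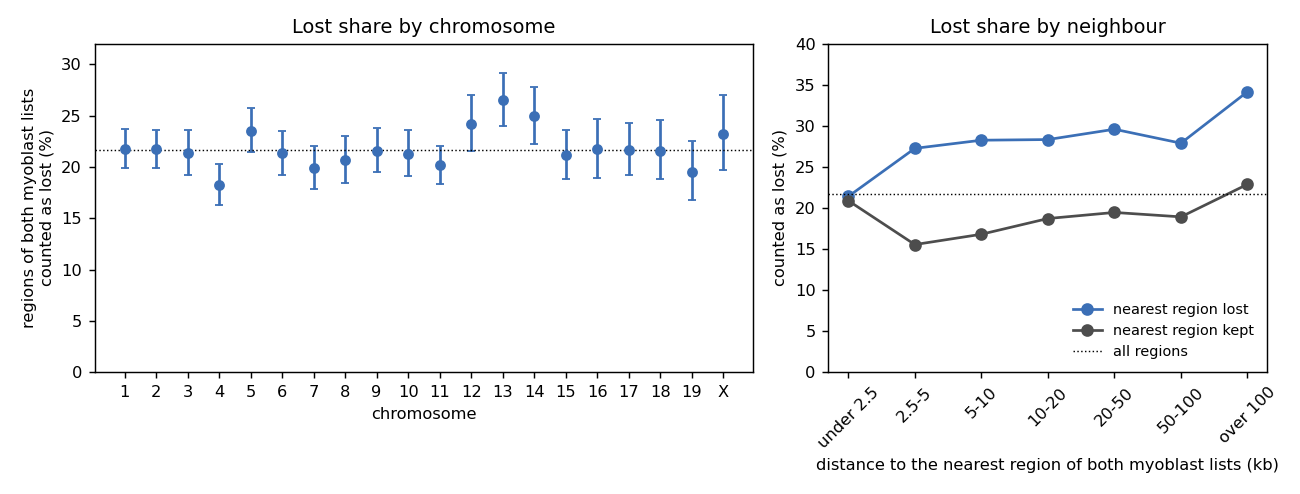
Left, share of regions of both myoblast lists that were lost (%), by chromosome, with exact 95% binomial intervals that cover counting error only; right, the same share by distance to the nearest region of both myoblast lists (kb), for regions whose nearest region was lost or kept. The chromosome shares lie between 18.2% and 26.5% around the dotted genome value of 21.7%, and the 2 neighbour lines meet under 2.5 kb and part beyond it.

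In windows of 5 Mb with at least 30 regions of both myoblast lists, of which there were 351, the lost share had a median of 22.0% and quartiles of 16.9% and 27.1%. It was over 40% in 3 windows, on chromosome 17 (60000001 to 65000000, 14 of 31 regions), chromosome 5 (145000001 to 150000000, 35 of 81) and chromosome 1 (185000001 to 190000000, 25 of 62). The lowest share was on chromosome 1 (85000001 to 90000000), with 2 of 43. Windows with lower median ranks had higher lost shares (Spearman rho -0.54 across windows, which share the libraries). The window on chromosome 5 had a median rank of 45.7, and the lowest window one of 62.7.

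The classes were looked up in lists that did not define them. Myotubes transfected with siDRR had SMC3 lists of 8384 and 23196 peaks, the first again the shorter. The first list called 8.93% of gained, 1.34% of lost and 54.9% of kept regions, against 19.4% of all regions. The second called 49.1% of gained (43.6% to 54.6%), 16.5% of lost (15.5% to 17.5%) and 95.1% of kept regions, against 50.7% of all. In both libraries gained regions were thus called more often than lost regions, which had similar ranks, and less often than kept regions, which ranked higher. Split by bands of 25 points of mean rank, the second list called 33.6%, 57.5%, 63.0% and 85.7% of gained regions, the last being 6 of 7, against 10.4%, 17.1%, 32.3% and 47.6% of lost regions. It called 50%, 81.3%, 98.1% and 100% of kept regions in those bands, so gained regions stayed below kept ones in each band, by less than over all ranks. The mean rank was taken over the lists that called a region: myotube lists for gained, myoblast lists for lost and all 4 for kept regions. Equal bands therefore do not mean equal rank in myotubes. Neither list called 161 gained regions (47.9%), 4502 lost regions (82.5%) and 563 kept regions (4.33%). The siDRR cells differed from the other myotubes by the transfection, so these lists are not further replicates. In lists of equal length the second siDRR list called 85.3% of gained, 65.2% of lost and 99.4% of kept regions.

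Control myotubes had ATAC lists of 58137 and 99547 peaks on these chromosomes. Over the central 200 bp, gained regions had an ATAC peak in 44.3% and 52.1% of cases, lost regions in 26.5% and 43.7%, and kept regions in 23.2% and 47.9%, against 36.5% and 55.7% of all regions. Gained regions were above kept regions in both lists, by a wide margin in the first and by less in the second, and below all regions in the second. Over whole regions in lists of equal length the shares were 33.6% and 52.7% for gained, 25.3% and 47.4% for lost and 29.4% and 58.6% for kept regions, so that in the second list gained regions then lay below kept ones. No ATAC list of myoblasts was used here, so openness before differentiation is not given. The regions with the most ATAC peaks were those called by the second library of both states alone, 2245 in number, at 85.2% and 92.7% over their whole width, and those called by the second myotube list alone, at 76.1% and 87.8%.

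**Figure D5:**
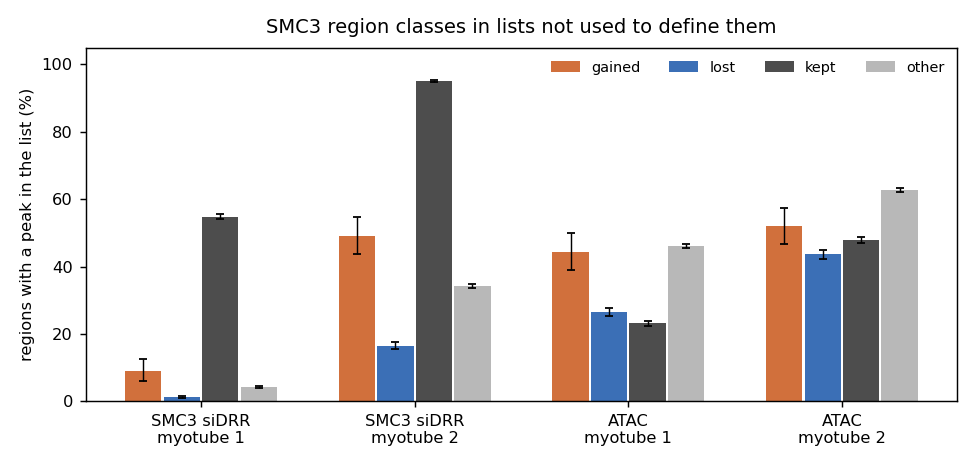
Share of gained, lost, kept and other SMC3 regions (%) with a peak in the SMC3 lists of siDRR myotubes (whole region) and in the ATAC lists of control myotubes (central 200 bp), with exact 95% binomial intervals that cover counting error only. Kept regions lead in the SMC3 lists, at 54.9% and 95.1%, and gained regions stand above lost regions in all 4 lists.

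Summits of the DRR RNA in ChIRP libraries, widened by 250 bp on each side, touched few regions of any class. In the 2 libraries of probe pool 2 they touched 6.85% and 6.55% of gained regions (23 and 22 regions), 2.33% and 1.98% of lost and 3.74% and 2.40% of kept regions, against 3.49% and 2.46% of all. In probe pool 1 the shares were 0.893% and 6.85% for gained, 0.202% and 4.67% for lost and 0.507% and 5.97% for kept regions, against 0.432% and 5.42% of all. Gained regions had the highest share of the 3 classes in all 4 libraries, on 3 to 23 regions. The ChIRP control libraries were not analysed here, and these shares over regions carry no test.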

How the data were processed

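SMC3 ChIP-seq peak lists of 2 myotube and 2 myoblast libraries were analysed, with SMC3 lists of siDRR myotubes, ATAC lists of control myotubes and ChIRP lists as outside readouts. Per the submitters' processing notes the build was mm9 and the tools were MACS 1.4.2 and MACS2, Bowtie2 2.2.4 and Bowtie 1.1.1, cutadapt 1.12, and bcl2fastq 2.17.1 and CASAVA 1.8.2, with no role or order named. The control, filters and threshold of the peak calls were not given in the sources used here. Each deposited list holds intervals and a score made by the authors' peak caller, on an unstated scale, 1 list per library. Scores were used to rank peaks within a list. No read counts were given, so depth is unknown, and intervals cover counting error only.

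Starts were made 1-based. Peaks were merged at 1 bp of overlap on chromosomes 1 to 19 and X (Python 3.11.15, pandas 2.3.3, scipy 1.17.1), and no interval recurred between lists. The procedure was checked on simulated lists. Per-list measures were compared by exact permutation, and shares over regions are descriptions with exact (Clopper-Pearson) 95% intervals. Regions named in the text are the 10 gained and 10 lost with the highest mean rank, the leading 5 kept regions of each kind, the 3 longest runs and the 3 widest peaks per class, of which some are printed. Classes, lists and measures were chosen with earlier results of these data known. Alternatives were cut, joined and left-out lists. Splits by rank, width, ATAC and neighbour, the 200 bp centre and the re-ranking of kept regions were added after the data were seen. With no mm9 annotation or genome here, no genes, CTCF motifs or sequences were assigned.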

Additional observations from a re-analysis of the deposited data

How the results depend on the processing

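With 1 library left out, lost regions ranged from 5889 to 11776, gained regions from 544 to 3629 and kept regions from 13244 to 19330. The lost share on chromosome X ranged from 24.9% to 50.6%, and the share of lost regions whose nearest region was lost from 16.998% to 36.2%, when lost regions made up 14.0% to 29.9% of all. Fewer lists make each class easier to enter. The difference in peaks per list stayed negative, from -16998.5 to -5289.5. The difference in median width ranged from -117.5 to 69.5 bp, the positive value being that without myoblast replicate 2 (exact permutation p of 0.33, the smallest possible). Lists cut to 15056 peaks gave 1023 lost and 788 gained regions, a nearest-lost share of 8.80% where 4.68% of all regions were lost, and 4.88% lost on X; they give no difference in length by construction. The better-scoring 50% of each list gave 6385 kept, 2431 lost and 161 gained regions, a nearest-lost share of 13.6% where 12.1% were lost, and 19.7% lost on X. Without X, with peaks joined across 1000 bp and with calls requiring 25% cover, the kept, lost and gained counts stayed within 1.5 times those reported; edge to edge distances were run for the nearest-lost share, which was 16.3%.

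The replicate block left the difference in peaks at -11144 (exact sign-flip permutation p = 0.5, the smallest for 2 pairs; pairs -15899 and -6389) and that in width at -24 bp (p = 1.0; pairs 92 and -140). Same-numbered lists deviated together with a correlation of 0.079 across regions. Among regions called by exactly 1 list of each state, 2365 had the same replicate number and 797 crossed numbers. With 2 pairs and no label on what a number shares, pairing is not established. Limits are the unknown depth, 2 libraries a state and a score whose scale is not stated.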
